A study of Homo sapiens with 20 samples.

Results

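Short loops were defined here as anchor pairs less than 50 kb apart that stood among the 100000 strongest loops of at least 1 of 4 glioblastoma cell lines, and 4130 of the 192365 loops in those strongest sets met this rule. Hi-C, which joins stretches of chromatin that are neighbours in the nucleus and counts the joints by sequencing, had been performed on H4 and 42MGBA, a pair of human glioblastoma lines that each carry a naturally occurring truncating mutation of STAG2, and on a STAG2-corrected derivative of each, H4 88-1 and 42MGBA 53-1. Each derivative is a single gene-edited line, so that the correction and other differences of a derivative cannot be told apart. The deposited data were 1 list of 300000 anchor pairs per cell line, with 2 Hi-C libraries pooled in each list, and each pair of anchors of about 5 kb had a loop strength on a scale without units. The short loops were chosen by their distance and by the loop strengths described below, no test against replicates was possible, and every difference between cell lines is a description of these 4 lists. No read counts came with the loops, so the depth behind a value is unknown. Expression of glial markers was not analysed here. The distance is the gap between the inner edges of the anchors, and anchors with a gap of 0 are called adjacent.

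Cohesin is a ring-shaped complex, with STAG1 or STAG2 as 1 of its subunits, that extrudes chromatin into loops and tends to stop at CTCF bound to motifs that face each other. Most such loops are far longer than those described here. Contacts over such short stretches also include enhancers with promoters, and the folding of a gene upon itself.

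Only 10 of the 4130 short loops held a forward match to the consensus core of the CTCF motif, searched at 12 positions on both strands, in the upstream anchor and a reverse match in the downstream anchor. These 10 (0.242%, 95% Wilson interval 0.132% to 0.445%, counting error only) lay in 8 groups of neighbouring loops. None of the short loops had matches in the divergent or in either tandem orientation, and 0 of 4130 allows a share of up to 0.0726%. Among 922316 other anchor pairs below 50 kb, built from the anchors of any list, the convergent arrangement was found in 239 (0.0259%), the divergent in 401, both forward in 357 and both reverse in 326. Facing motifs were found in 0.349% of all loops of the union and in 0.505% of loops of 50 to 100 kb, so they were no more common in short loops than in loops generally. The 5 loops below have the highest mean strength of those with facing motifs, with 1 loop taken per group of neighbours, and are shown so that the facing cores can be read. Each sequence is from GRCh37 (hg19), 5′ to 3′ on the strand given, with the core match in capitals and 24 bases on each side.
chr15:74674869-74674928, plus strand, upstream anchor, in an intron of the non-coding gene LINC02255: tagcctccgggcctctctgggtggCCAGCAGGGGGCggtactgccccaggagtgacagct
chr15:74731210-74731269, minus strand, downstream anchor near SEMA7A, intergenic: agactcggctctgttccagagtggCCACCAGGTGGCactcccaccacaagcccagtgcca
chr6:31519289-31519348, plus strand, upstream anchor, in an intron of NFKBIL1: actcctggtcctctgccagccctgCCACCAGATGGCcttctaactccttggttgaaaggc
chr6:31566503-31566562, minus strand, downstream anchor, intergenic: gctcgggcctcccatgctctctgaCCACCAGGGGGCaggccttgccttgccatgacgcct
chr9:135978712-135978771, plus strand, upstream anchor, in an intron of RALGDS: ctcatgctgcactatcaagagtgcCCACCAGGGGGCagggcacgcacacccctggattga
chr9:136025029-136025088, minus strand, downstream anchor at a start of RALGDS: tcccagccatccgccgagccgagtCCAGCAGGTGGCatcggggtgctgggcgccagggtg
chr12:54089400-54089459, plus strand, upstream anchor, intergenic: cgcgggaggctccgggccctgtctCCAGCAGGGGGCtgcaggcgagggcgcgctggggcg
chr12:54140604-54140663, minus strand, downstream anchor, in an exon of the non-coding gene CISTR: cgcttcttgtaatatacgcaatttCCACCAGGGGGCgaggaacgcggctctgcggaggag
chr11:118777873-118777932, plus strand, upstream anchor, in an intron of BCL9L: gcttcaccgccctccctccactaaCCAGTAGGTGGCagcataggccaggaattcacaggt
chr11:118801114-118801173, minus strand, downstream anchor, in an intron of UPK2: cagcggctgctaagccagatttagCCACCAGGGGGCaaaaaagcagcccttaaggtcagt

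The loop behind the chr15 sequences, which ended near the start of SEMA7A, a membrane-anchored semaphorin, was the strongest of all short loops by mean. Its anchors lay 48.7 kb apart, and it had strengths of 8.58 in H4 and 10.2 in H4 88-1, and 12.7 in 42MGBA and 11.6 in 42MGBA 53-1. It was thus listed in all 4 lines and was stronger in both lines of the 42MGBA system than in those of the H4 system. The loop from NFKBIL1 and ATP6V1G2 had the opposite order, with 7.95 in H4, 8.93 in H4 88-1, 4.998 in 42MGBA 53-1 and no listing in 42MGBA. At RALGDS, which encodes an exchange factor for the small GTPase Ral, the strengths were 4.93, 6.05, 6.69 and 5.98 in H4 and H4 88-1 and in 42MGBA and 42MGBA 53-1. The chr12 loop was listed only in the 42MGBA lines, at 6.93 in 42MGBA and 7.24 in 42MGBA 53-1. At BCL9L, a Wnt pathway coactivator, the strength was 4.94 in H4, 6.22 in H4 88-1 and 5.22 in 42MGBA 53-1, and the loop was absent from the 42MGBA list. The 5 loops with facing motifs thus had no order of all 4 cell lines in common. Those of the 5 that the H4 lines listed were each stronger in H4 88-1 than in H4, whereas some others of the 10 were weaker there. Matches to the core are a description of these letters, and CTCF binding was not analysed here. With the 9-letter core AGGGGGCGC in place of the consensus, 3 short loops had facing matches and 2 had divergent ones.

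Short loops made up a small share of each list, and 42MGBA 53-1 had the most. Among the 100000 strongest loops, H4 had 1287, H4 88-1 had 897, 42MGBA had 1318 and 42MGBA 53-1 had 2447. The STAG2-corrected line thus had fewer than its parent in the H4 system and more in the 42MGBA system. In the H4 system the corrected line was lower below 30 kb, where the loops numbered 934 in H4 and 475 in H4 88-1, but not from 30 to 50 kb, with 353 and 422. In the 42MGBA system both groups were larger in the corrected line, with 793 and 1477 below 30 kb and 525 and 970 from 30 to 50 kb. Adjacent anchors, the closest possible pairs, numbered 219 in H4 and 114 in H4 88-1, and 153 in 42MGBA and 368 in 42MGBA 53-1. The whole lists of 300000 had the same order, with 8150 short loops in H4 and 5215 in H4 88-1, and 9576 in 42MGBA and 15873 in 42MGBA 53-1.

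**Figure D1:**
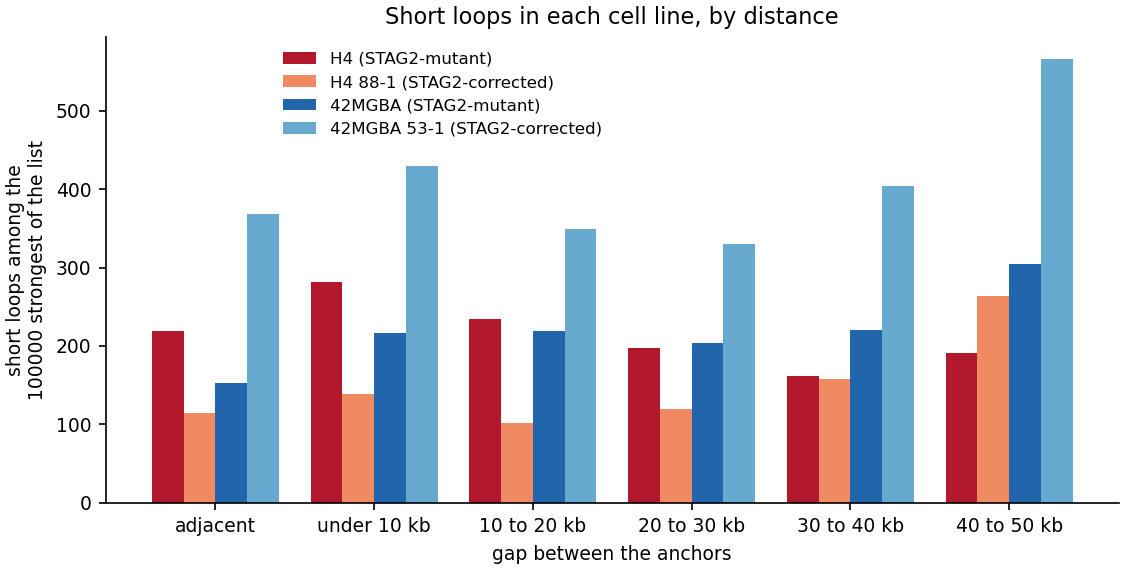
Number of short loops (vertical axis) among the 100000 strongest loops of each cell line, by the gap between the anchors (horizontal axis), with 1 bar for each of the 4 pooled lists and no error bars because a list is a single value. Below 30 kb the H4 bars (198 to 282) stand above the H4 88-1 bars (102 to 139), and in every class the 42MGBA 53-1 bar is the highest.

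Short loops were of modest strength. Their median among the strongest 100000 was 6.60 in H4 and 6.95 in H4 88-1, and 6.86 in 42MGBA and 6.46 in 42MGBA 53-1, against 7.09, 7.501, 7.54 and 6.96 for all of the strongest loops. The best placed short loop ranked 4566 in H4 and 3425 in H4 88-1, and 1698 in 42MGBA and 1360 in 42MGBA 53-1. The shares found in several lines were small. In the strongest sets, 2785 short loops (67.4%) stood in 1 line and 115 (2.78%) in all 4, against 41.2% and 18.4% of the whole union. Lines of both systems held 491 of them (11.9%, against 35.5% of the union), the H4 system alone 1238 and the 42MGBA system alone 2401. Of the last, 1390 were in 42MGBA 53-1 alone. Where a list did not hold a short loop, its minimum stood in (H4 4.14, H4 88-1 4.44, 42MGBA 4.49, 42MGBA 53-1 4.28), so that folds against such a value are lower bounds. Absent short loops numbered 2116, 2155, 1168 and 873 in the same order.

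Most short loops lay at or within protein-coding genes, a property that the rule did not use. An anchor within 3 kb of a transcript start was found in 2597 (62.9%, 95% Wilson interval 61.4% to 64.3%, which takes neighbouring loops as independent), and at both anchors in 1370 (33.2%). The other anchor pairs below 50 kb had 40.2% and 12.1%, and the whole union of loops had 45.03% and 8.12%. Both anchors overlapped the same gene in 2410 short loops (58.4%), against 41.9% of the other pairs below 50 kb. The share inside a gene fell with distance, from 74.0% of adjacent short loops to 36.7% at 40 to 50 kb, while other pairs fell from 55.4% to 30.8%. Only 23.1% of the short loops had neither a start nor a shared gene, against 38.6% of the other pairs. Median GC content of the anchors was 43.0% in short loops and 41.9% in the other pairs. The share with a start was not alike in the lines: a start lay at an anchor of 80.8% of the short loops of H4 and 79.0% of those of H4 88-1, but of 64.5% in 42MGBA and 52.7% in 42MGBA 53-1. With 1 loop per group of neighbours, the share with a start was 62.8%. The difference from other pairs was not tested.

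**Figure D2:**
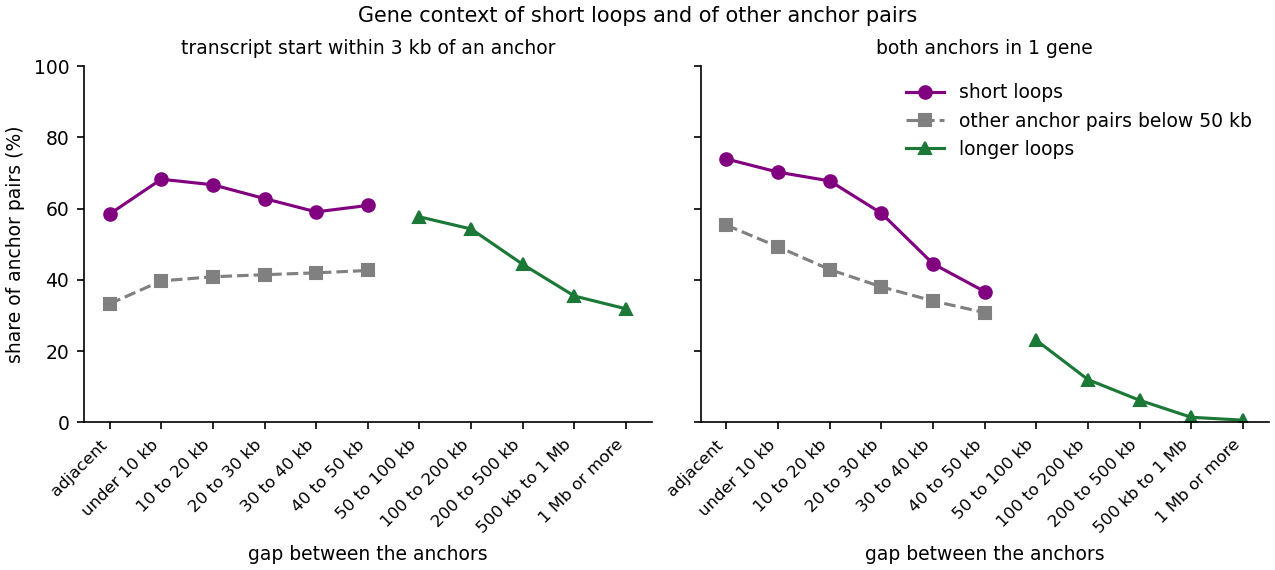
Share of anchor pairs (vertical axis, %) with a protein-coding transcript start within 3 kb of an anchor (left) and with both anchors in 1 protein-coding gene (right), by the gap between the anchors (horizontal axis). Short loops (circles) lie above the other anchor pairs below 50 kb (squares) in every class, 58.5% to 68.3% against 33.3% to 42.7% for starts, and longer loops (triangles) fall to 31.9% for starts and 0.630% for a shared gene at 1 Mb or more.

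Many short loops inside genes lay side by side over stretches of gene bodies. Neighbouring loops share anchors, and their strengths come from maps corrected by HiCorr and enhanced by DeepLoop, whose part in these blocks was not tested. Neighbours joined into 481 groups, and 44 groups of 20 or more held 2087 short loops (50.5%). Inside protein-coding genes they fell in 274 genes, of which 63 held 10 or more. Every possible anchor pair below 50 kb was a short loop in COL1A2 (28 of 28), RBM39 (36 of 36) and TOP2A (21 of 21). The count was 44 of 45 in VAPA, 171 of 220 in COL12A1 and 49 of 66 in SF3B3. Long genes were filled in part, as in UBR4 with 128 of 253 and HUWE1 with 110 of 264. The genes named for their gene bodies were taken from those with the most short loops, after their values were seen.

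Several blocks belonged to the H4 system, and most of these were weaker in H4 88-1. UBR4 (chr1:19401004-19536760, minus strand), a ubiquitin ligase of the N-degron pathway, held 128 short loops, all among the strongest of H4. Their median strength was 8.001 in H4 (5.88 to 9.41), 5.26 in H4 88-1, 4.57 in 42MGBA and 4.28, the lowest listed value, in 42MGBA 53-1. In H4 88-1, 127 of the 128 were weaker than in H4, with a median log2 ratio of -0.53. HUWE1 (chrX:53559057-53713697, minus strand), another ubiquitin ligase, had 110 with medians of 7.25 in H4 and 5.87 in H4 88-1 and medians at the lowest listed values in the 42MGBA lines, and 108 of its loops were weaker in H4 88-1. CKAP5, a microtubule polymerase of the spindle, had 50 loops that were all among the strongest of H4 and of no other line, at a median of 6.36 in H4 and of 4.44, the lowest listed value, in H4 88-1. NPLOC4, a cofactor of the segregase p97, had 43 with medians of 6.40 and 4.63 in H4 and H4 88-1, and PRRC2B, an RNA-binding protein gene, 32 with 6.33 and 4.44. All loops of these 3 genes were weaker in H4 88-1, which their choice through the H4 list largely fixes, since none stood among the strongest of H4 88-1. The loops of UBR4 and HUWE1 were also all chosen through H4, with 25 and 28 of them among the strongest of H4 88-1 as well. The spliceosome gene SF3B3 went the same way by less, with 7.62 in H4 and 6.98 in H4 88-1, and 5.62 in 42MGBA and 4.89 in 42MGBA 53-1, and 41 of its 49 loops were weaker in H4 88-1. All 49 had been chosen through H4, and 37 of them through H4 88-1 as well, so here too the choice leans the same way.

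The block in IARS1 went the other way in the H4 system, and that in the splicing factor gene RBM39 was strong in both systems. IARS1, the cytoplasmic isoleucine tRNA synthetase, had 35 short loops with medians of 5.31 in H4 and 7.22 in H4 88-1, and 33 of them stood among the strongest of H4 88-1. In RBM39 the medians were 9.31 in H4 and 6.36 in H4 88-1, and 7.65 in 42MGBA and 7.12 in 42MGBA 53-1. All 36 RBM39 loops were weaker in H4 88-1, and 31 were weaker in 42MGBA 53-1. All 36 had been chosen through H4, and 19 of them through H4 88-1 as well, while 28 stood among the strongest of each 42MGBA line. Of the IARS1 loops, 10 stood among the strongest of H4. Within the H4 pair the choice thus leans the same way as the direction in both genes, and its part was not tested. BUB1B, a spindle checkpoint kinase, was level within the H4 pair, at 6.29 and 6.56, and lower in the 42MGBA lines, at 5.44 and 4.38.

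Most of the other large blocks belonged to the 42MGBA system, and several lay in collagen genes. COL12A1 (chr6:75794042-75915983, minus strand), which encodes a fibril-associated collagen, held 171 short loops, none of them listed in H4 or H4 88-1. Their median was 6.10 in 42MGBA (4.49 to 8.34) and 6.67 in 42MGBA 53-1 (5.07 to 11.3), and 36 were weaker in 42MGBA 53-1. COL5A2, a fibrillar collagen, held 60, with 6.73 in 42MGBA and 4.28 in 42MGBA 53-1, where 27 of the 60 were listed and all were weaker. COL1A2 (chr7:94024207-94060539, plus strand), a chain of type I collagen, held 28 at 12.1 in 42MGBA (8.98 to 15.7) and 7.58 in 42MGBA 53-1 (5.505 to 10.4), with all 28 weaker in 42MGBA 53-1 and a median log2 ratio of -0.70. The collagen blocks at COL5A2 and COL1A2 were thus weaker in the corrected line while most of that at COL12A1 was stronger. LPAR1, a receptor for lysophosphatidic acid, had 54 loops that were all among the strongest of 42MGBA 53-1 and of no other line, at 6.53 against 4.54 in 42MGBA. The COL5A2 loops were likewise all chosen through 42MGBA and the LPAR1 loops all through 42MGBA 53-1, so that the choice largely fixes both directions. Of the COL12A1 loops, 67 stood among the strongest of 42MGBA and 151 among those of 42MGBA 53-1. FSIP1, a fibrous sheath interacting protein gene, held 106 at 6.16 and 6.45 in 42MGBA and 42MGBA 53-1, and WASHC4, of the WASH complex of endosomes, 54 at 7.002 and 6.45. VAPA, an endoplasmic reticulum protein of membrane contact sites, had medians of 7.94 and 7.39, against 4.14 in H4 and 4.56 in H4 88-1. DYNC1H1, the heavy chain of cytoplasmic dynein, held 53 in both systems, all of them listed in H4, with medians of 5.75 in H4 and 5.24 in H4 88-1, and 6.45 in 42MGBA and 6.401 in 42MGBA 53-1.

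**Figure D3:**
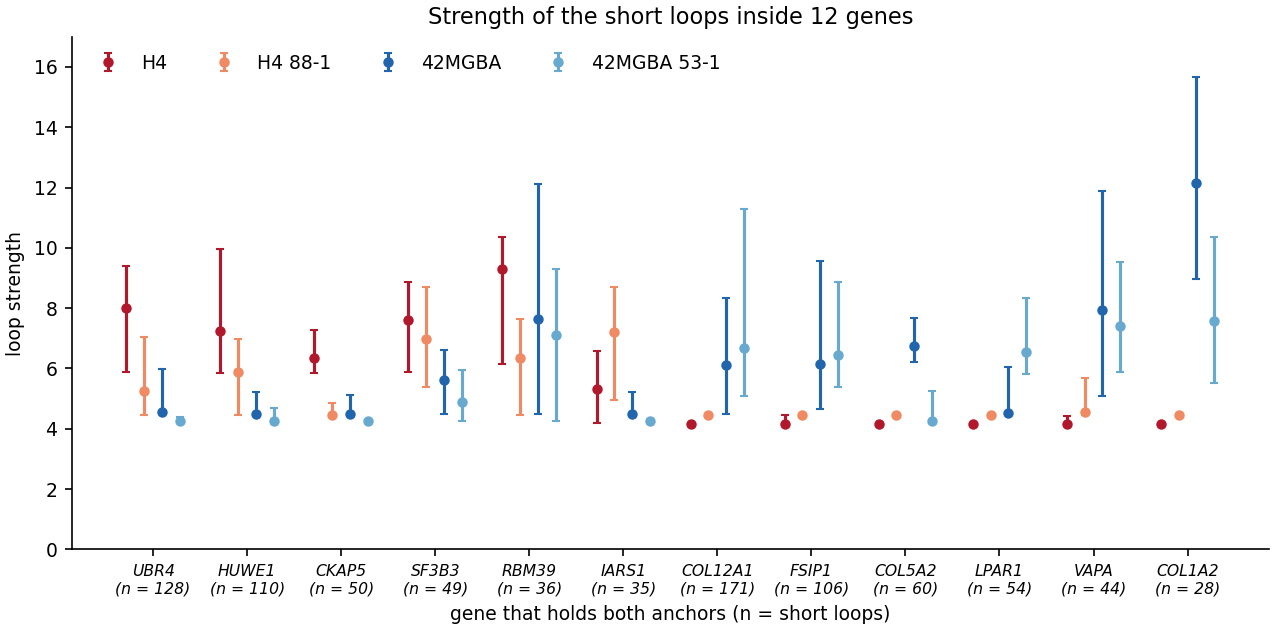
Loop strength (vertical axis, no units) of the short loops with both anchors inside each of 12 genes, with a point for the median and bars from the lowest to the highest loop in each cell line. UBR4 to IARS1 are high in an H4 line (medians up to 9.31), and COL12A1 to COL1A2 are at or near the lowest listed values in H4 and H4 88-1 and reach a median of 12.1 in 42MGBA.

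**Figure D4:**
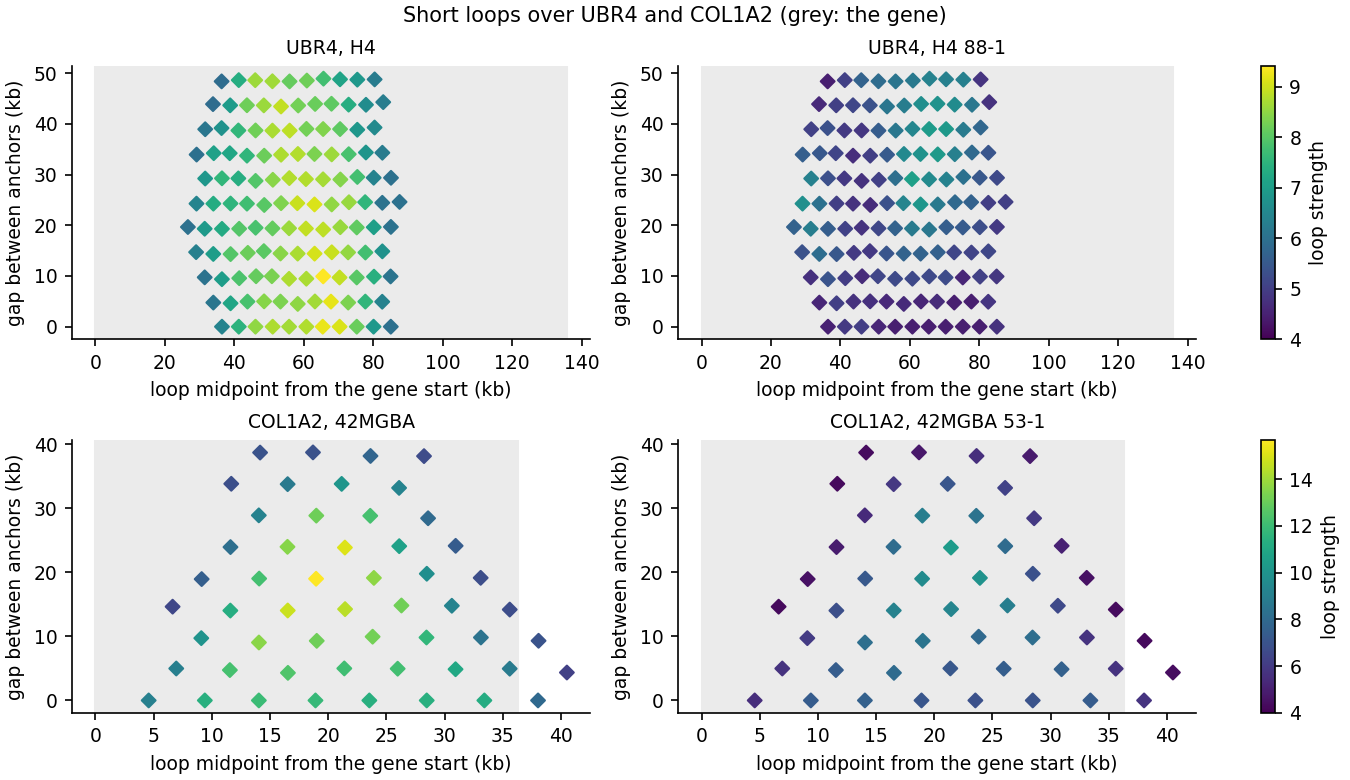
Short loops over UBR4 in H4 and H4 88-1 and over COL1A2 in 42MGBA and 42MGBA 53-1, placed by the midpoint of the loop from the gene start (horizontal axis, kb) and the gap between its anchors (vertical axis, kb), with colour for loop strength and grey for the gene. The 128 loops of UBR4 fill the middle of the gene and dim from H4 to H4 88-1, and the 53 loops in and around COL1A2 cover the gene from start to end and dim from 42MGBA to 42MGBA 53-1.

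Within the H4 pair, short loops below 30 kb were weaker in the STAG2-corrected line and those of 30 to 50 kb were stronger. For this comparison the 100000 strongest loops of both lines were merged into 129476 loops, 1729 of them short. The median log2 ratio of H4 88-1 to H4 was -0.32 below 30 kb (1135 loops, SD 0.31 over chromosomes with at least 20 of them) and 0.20 from 30 to 50 kb (594 loops, SD 0.34), against 0.07 for all merged loops. Relative to all merged loops it was -0.40 below 30 kb, and among the 807 loops below 30 kb that both lines listed it was -0.18. By class it ran from -0.40 for adjacent anchors through -0.19 at 20 to 30 kb to 0.27 at 40 to 50 kb, and it was 0.27 at 50 to 100 kb and -0.26 at 1 Mb or more. Loops inside 1 gene had -0.37 below 30 kb (230 of 916 stronger in H4 88-1) and -0.17 from 30 to 50 kb (85 of 217 stronger). Loops not inside 1 gene had -0.14 below 30 kb (93 of 219 stronger) and 0.36 from 30 to 50 kb (297 of 377 stronger). With 1 loop per group of neighbours, loops of 30 to 50 kb had 0.027 inside 1 gene (22 of 40 stronger) and 0.33 not inside 1 gene (71 of 91 stronger). The ratio at 30 to 50 kb was thus higher in loops not inside 1 gene, while the negative sign inside 1 gene was not kept with 1 loop per group. Over all 1729 the median was -0.16, but it was 0.11 with 1 loop per group of neighbours and 0.13 without the groups of 20 or more, so that the sign for all short loops together rests on the large blocks. The sign below 30 kb did not, at -0.37 with 1 loop per group and -0.39 without the large groups. Below 30 kb more of the loops had been chosen through the list of H4 (934) than through that of H4 88-1 (475). From 30 to 50 kb more had been chosen through H4 88-1 (422) than through H4 (353). The choice thus leans the same way as both signs, and its part in them was not tested.

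The z-score of the residual, at a two-sided 0.05 cutoff, called 94 short loops specific to H4 (5.44%, where 2.17% of all merged loops were called) and 34 specific to H4 88-1 (1.97%, where 1.94% were called). At least 1.5-fold stronger were 159 in H4 (9.20%, background 2.16%) and 214 in H4 88-1 (12.4%, background 8.74%). With ratios centred on all merged loops the 1.5-fold counts were 266 and 135. Of the 94 loops specific to H4, 87 were below 30 kb. When the regression was made within each distance class, 12 were specific to H4 and 54 to H4 88-1, so the balance of the z-score calls turned with this choice. For the centred and the within-class counts the share of all merged loops called was not computed, so neither balance can be set beside a background. The adjacent pair of anchors in UBR4 at chr1:19466364-19476277 had the largest difference towards H4, with 9.23 in H4, 4.87 in 42MGBA and no listing in H4 88-1 or 42MGBA 53-1, and was at least 2.08-fold stronger in H4 than in H4 88-1. Adjacent anchors from TEDC2 to NTN3 and TBC1D24 had 8.39 in H4 and were not listed in H4 88-1. In the other direction, the loop ending at ITGA3, an integrin chain that binds laminin, was at least 2.33-fold stronger in H4 88-1, with 9.66 there, 4.53 in 42MGBA 53-1 and no listing in H4 or 42MGBA. A loop within CORO7, a coronin of the Golgi, was absent from H4, 8.15 in H4 88-1, 4.70 in 42MGBA and absent from 42MGBA 53-1.

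Within the 42MGBA pair, short loops were stronger in the STAG2-corrected line at every distance, although loops as a whole were weaker there. The merged set held 131211 loops, 2892 of them short. The median log2 ratio of 42MGBA 53-1 to 42MGBA was 0.15 below 30 kb (1776 loops, SD 0.25 over chromosomes) and 0.16 from 30 to 50 kb (1116 loops, SD 0.15), against -0.11 for all merged loops and -0.30 at 1 Mb or more. Adjacent anchors had 0.29, the highest of the classes, and 10 to 20 kb had 0.08. Loops of 50 to 100 kb, which are not short loops by the rule, were also stronger in 42MGBA 53-1, at 0.11 with 63.2% positive. The positive sign was thus not particular to short loops. The medians differed little by gene position, at 0.12 inside 1 gene and below 30 kb and 0.18 outside 1 gene at 30 to 50 kb. Short loops were positive in 12 of the 19 chromosomes with at least 20 of them, with a median of -0.45 on chromosome 7, where 52 of the 100 lay at COL1A2, and of 0.39 on chromosome 9, where LPAR1 lies. More of these loops had been chosen through the list of 42MGBA 53-1 than through that of 42MGBA. Among the 2392 listed in both lines the median was 0.10, and among the 1426 of these below 30 kb it was 0.08. Relative to all merged loops the median below 30 kb was 0.26.

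By z-score 19 short loops were specific to 42MGBA (0.657%, background 2.45%) and 39 to 42MGBA 53-1 (1.35%, background 1.61%). At least 1.5-fold stronger were 121 in 42MGBA (4.18%, background 10.2%) and 77 in 42MGBA 53-1 (2.66%, background 1.46%), and after centring on all merged loops the counts were 41 and 276. Within distance classes the z-score called 107 for 42MGBA and 12 for 42MGBA 53-1, so here too the balance turned. As in the H4 pair, no share of all merged loops was computed for the centred and the within-class counts. The largest differences towards 42MGBA were at an adjacent pair on chr10:3771158-3780818, outside protein-coding genes, and at a loop from CALM3, a calmodulin gene, to DACT3, a Wnt pathway antagonist. The first had 7.67 in 42MGBA and was in no other list, and the second had 7.84 in 42MGBA against 4.40 in 42MGBA 53-1, 5.47 in H4 and 6.23 in H4 88-1. A loop in COL5A2 followed with 7.55 against 4.32. None of these loops passed the z-score cutoff, with -1.76 on chr10, -1.78 from CALM3 to DACT3 and -1.67 in COL5A2. Towards 42MGBA 53-1, adjacent anchors in ZNF43, a zinc finger gene, had 8.30 and adjacent anchors in LPAR1 8.19, and both were absent from the other 3 lists. The loop to TXN2, the mitochondrial thioredoxin, had 8.28 in 42MGBA 53-1 and 5.92 in H4 88-1 and was listed in neither STAG2-mutant line.

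**Figure D5:**
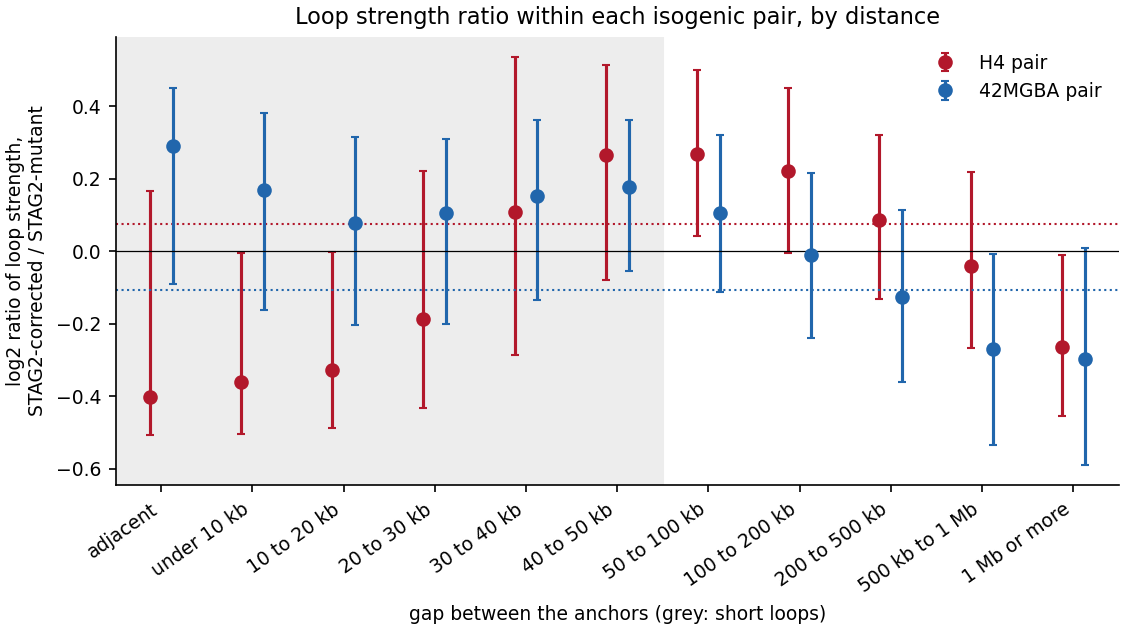
Median log2 ratio of loop strength in the STAG2-corrected to the STAG2-mutant line (vertical axis) by the gap between the anchors (horizontal axis), with bars from the lower to the upper quartile over loops, dotted lines at the median of all merged loops of each pair, and grey for short loops. The pairs lie on opposite sides of 0 below 30 kb, -0.40 and 0.29 at adjacent anchors, and again from 100 to 500 kb. They lie on the same side from 30 to 100 kb and at 500 kb or more.

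A small number of short loops could be followed in both pairs. Of the 491 in both merged sets, 205 were stronger in both corrected lines, 92 were stronger in both mutant lines, and 97 were found in each of the mixed patterns. These are 41.8%, 18.7% and 19.8% each, where the 68322 loops of any length in both merged sets had 21.4% stronger in both corrected lines, 27.95% stronger in both mutant lines, 10.3% stronger in H4 and 42MGBA 53-1 and 40.3% stronger in H4 88-1 and 42MGBA. In each pair 302 of the 491 (61.5%) were stronger in the corrected line, where of all such loops 61.7% were stronger in H4 88-1 and 31.8% in 42MGBA 53-1. On these 491 the median log2 ratios thus had the same sign, 0.16 and 0.11. The 218 of them below 30 kb had -0.12 and 0.033, and the 273 of 30 to 50 kb had 0.32 and 0.15. At least 1.5-fold stronger in both corrected lines were 3, and none was so in both mutant lines. The share of all loops in both merged sets past this fold was not computed, so these counts are not a result about short loops. FMNL3, a formin that builds actin filaments, had a loop between its start regions of 6.90 in H4 88-1 and 7.89 in 42MGBA 53-1 that neither mutant line listed. PXN, which encodes the focal adhesion protein paxillin, had 5.08 in H4 and 8.62 in H4 88-1, and 4.62 in 42MGBA and 7.03 in 42MGBA 53-1, which are differences of 1.70-fold and 1.52-fold. The third, on chr2:238085294-238123789 outside protein-coding genes, was absent from H4 and had 8.48 in H4 88-1, 5.73 in 42MGBA and 8.60 in 42MGBA 53-1. In these 3 loops both corrected lines were above both mutant lines, although the choice fixes that each was above its own parent.

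Towards the mutant lines the largest common differences were at TOP2A, at PCBP2 and between NFS1 and RBM39, and were a little under or near 1.5-fold. TOP2A, the topoisomerase of dividing cells, had a loop of 11.2 in H4 and 7.72 in H4 88-1, and 6.75 in 42MGBA and 4.48 in 42MGBA 53-1, 1.46-fold and 1.51-fold weaker in the corrected lines. Adjacent anchors in PCBP2, a poly(C)-binding protein gene, had 9.58, 6.33, 7.69 and 5.29 in the same order. The loop from NFS1 and ROMO1 to the start of RBM39 had 6.98, 4.75, 7.93 and 5.74. In each of the 3 the mutant line was the higher of its pair, which the choice of these loops fixes. Both mutant lines were above both corrected lines at PCBP2 and RBM39, whereas at TOP2A the genotypes overlapped, with H4 88-1 above 42MGBA.

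The largest differences between the systems were at COL1A2 in the 42MGBA lines and between POLD4 and RAD9A in the H4 lines. Of all short loops, that across COL1A2 differed most, with 15.0 in 42MGBA, 10.4 in 42MGBA 53-1 and no listing in H4 or H4 88-1. It was at least 2.91-fold stronger in the 42MGBA lines by geometric mean. ISCU, an iron-sulfur cluster scaffold, had a loop of 10.6 in 42MGBA, 12.8 in 42MGBA 53-1 and 6.04 in H4 88-1, and adjacent anchors at VAPA had 11.9, 9.45, 4.43 in H4 and 4.78 in H4 88-1. Towards the H4 lines, the loop between POLD4, a DNA polymerase delta subunit, and RAD9A, of the checkpoint clamp, had 9.61 in H4, 10.5 in H4 88-1 and 6.01 in 42MGBA 53-1 and was absent from 42MGBA. A loop ending at NCR3 had 7.10 and 9.81 in the H4 lines and 4.45 in 42MGBA 53-1. In these 5 loops the ranges of the 2 systems did not overlap, which the choice by that difference fixes.

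Other strong short loops were common to all lines. The loop on chr17:41775071-41832558 that ended in SOST, an inhibitor of Wnt signaling, had 10.9 in H4 and 10.2 in H4 88-1, and 9.35 in 42MGBA and 9.89 in 42MGBA 53-1, the most even of the strongest 3. Within LMNA, the gene of lamins A and C, a loop of 28.9 kb had 10.7, 13.5, 6.94 and 9.17, with the corrected line above its parent in both systems.

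Matrix genes were the best represented of the gene lists. The lists were made with earlier results of these data known, so their shares are a description and no test against all protein-coding genes. A short loop lay at a transcript start of 10 of 30 mesenchymal and matrix genes (33.3%), against 556 of 20136 protein-coding genes (2.76%). These were COL1A1, COL1A2, COL3A1, COL5A1, COL6A1, COL6A2, COL6A3, THBS1, S100A6 and S100A10. Counting every collagen gene, a tally made after the values were seen, 10 of 44 (22.7%) held a short loop at a start or inside the gene, against 2.97% of all protein-coding genes. Beside COL1A2 and COL5A2, COL3A1 had 17 loops that were all weaker in 42MGBA 53-1, with medians of 7.17 and 5.42, and neither H4 line listed any of them. COL6A2 had 8 and COL6A1 had 2 that were all stronger in 42MGBA 53-1, with COL6A2 at 5.60 in 42MGBA and 6.84 in 42MGBA 53-1. COL6A3 had 48, at 4.14 in H4 and 5.81 in H4 88-1, and 6.75 in 42MGBA and 6.85 in 42MGBA 53-1, and COL7A1 had 10, all among the strongest of H4 88-1 and of no other line, at 6.57 against 4.29 in H4. The collagens thus had no common order within the 42MGBA pair: COL1A2, COL3A1 and COL5A2 were lower in the corrected line, and COL1A1, COL6A1 and COL6A2 were higher. These directions go with the list through which the loops were chosen, which largely fixes several of them. In the strongest sets of 42MGBA and 42MGBA 53-1 stood 52 and 32 at COL1A2, 17 and 6 at COL3A1, and 60 and 0 at COL5A2. The counts were 0 and 1 at COL1A1, 0 and 2 at COL6A1, and 1 and 8 at COL6A2. At S100A10, a partner of annexin A2, the strongest loop had 8.35, 5.64, 10.3 and 11.95 in H4 and H4 88-1 and in 42MGBA and 42MGBA 53-1.

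The HOX list had 7 of 39 genes with a short loop at a start, and all 7 were in the HOXB cluster, whose transcription factors set position along the body axis. The loop from HOXB2 to HOXB3 had 9.07 in 42MGBA, 6.42 in 42MGBA 53-1 and no listing in the H4 lines, and that from HOXB2 to HOXB4 had 8.65 and 6.13. At HOXB6, HOXB7 and HOXB8 the strongest loop was 7.58 in 42MGBA, 5.06 in 42MGBA 53-1 and 4.85 in H4. HOXB5 had 6.35 in 42MGBA, 5.93 in 42MGBA 53-1 and 4.77 in H4. By its strongest loop each of the 7 HOXB genes was thus highest in 42MGBA, whereas a group of 4 other loops at HOXB3 and HOXB4 had medians of 5.74 in 42MGBA and 6.13 in 42MGBA 53-1. FOSB and FOSL1 were the 2 of 26 genes of the AP-1 and immediate early list, with FOSB at 6.31, 6.07, 7.35 and 9.34 in H4 and H4 88-1 and in 42MGBA and 42MGBA 53-1 and FOSL1 at 5.87 in 42MGBA 53-1 alone. The other lists had AMOTL2 of 12 YAP targets, NF1 of 23 glioblastoma drivers, NFIX of 19 astrocyte and glial genes, CAMK2A of 15 neuronal genes, and TUBB, EEF2 and ACTG1 of 17 housekeeping genes. NFIX, a nuclear factor I gene, had 7.87, 7.70, 6.70 and 8.44 across the lines. No gene of cohesin and CTCF (0 of 15), of Polycomb (0 of 24) or of blood and lymphoid cells (0 of 14) had a short loop at a start. Beside the 2.76% of all protein-coding genes, neither these counts nor those of 1 gene per list are a result about the lists.

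Short loops were unevenly spread over the chromosomes. Chromosome 17 held 11.3% of them against 3.93% of the union of loops, chromosome 15 held 10.5% against 4.29%, chromosome 19 held 6.68% against 1.06%, chromosome 22 held 4.29% against 1.03%, and the X chromosome held 3.54% against 0.526%. Chromosome 5 had 0.896% against 7.03%. Of the 146 on the X chromosome, 110 were in HUWE1. Chromosomes 17, 19 and 22 also held more of the protein-coding genes than of the loops, with 5.90%, 7.34% and 2.23% of the genes. Chromosome 15 held less of the genes than of the loops, with 3.01% of the genes. So did chromosome 2, with 11.5% of the short loops, 9.34% of the loops and 6.22% of the genes. The part of gene density in the spread was not tested.

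The largest group of neighbours lay outside genes apart from COPS8, on chr2:238002947-238226436, next to COL6A3. It had 239 short loops, all among the strongest of 42MGBA 53-1, with medians of 4.14 in H4 and 4.65 in H4 88-1, and 5.92 in 42MGBA and 6.66 in 42MGBA 53-1. Its strongest member by mean had 5.198, 8.55, 11.2 and 10.1 in these lines, and another was 2.24-fold stronger in H4 88-1 than in H4, with 4.55 in H4 and 10.2 in H4 88-1, and 6.67 in 42MGBA and 8.68 in 42MGBA 53-1. Of 1004 loops of 50 kb or more with an anchor in this region, 412 were among the strongest of H4, 470 of H4 88-1, 636 of 42MGBA and 762 of 42MGBA 53-1. Their medians were 5.16, 5.94, 6.79 and 6.59, so the longer loops were lower in 42MGBA 53-1 than in 42MGBA where the short ones were higher. The short ones had all been chosen through 42MGBA 53-1, and 92 of them through 42MGBA as well, so the choice largely fixes their direction. At UBR4 the 93 longer loops had medians of 5.93 in H4 and 6.37 in H4 88-1, with 50 among the strongest of H4 and 54 among those of H4 88-1. Of the 128 short ones, 127 were weaker in H4 88-1, but all 128 had been chosen through H4 and only 25 through H4 88-1 as well. The choice thus differs between short and longer loops, and the contrast in direction cannot be told apart from it. At COL12A1 the 95 longer loops numbered 12 in the strongest set of 42MGBA and 64 in that of 42MGBA 53-1, at medians of 5.62 and 6.28. Of these, 31 stood in the strongest set of H4 and 15 in that of H4 88-1, although no short loop there was listed in either line. The 169 longer loops at COL1A2 had medians of 6.83 in H4 and 5.69 in H4 88-1, and 8.20 in 42MGBA and 7.75 in 42MGBA 53-1, and thus, unlike the short ones, were listed in the H4 lines. No longer loop touched the NPLOC4 block.

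The thresholds of the rule cut through gradual values. Just inside the distance limit was a pair on chromosome 14 of 49.7 kb with 7.30, 8.36, 8.79 and 6.91 in H4 and H4 88-1 and in 42MGBA and 42MGBA 53-1, and just outside was a pair on chromosome 7 of 51.1 kb with 4.24 in H4, 5.88 in 42MGBA 53-1 and no listing in the other lines. The weakest short loop counted in H4 had 5.82938 and the strongest not counted there 5.82885, and the corresponding pairs were 6.20699 and 6.20585 in H4 88-1, 6.2278 and 6.22662 in 42MGBA, and 5.8072 and 5.80698 in 42MGBA 53-1. The lists differ in these levels, so a loop of the same strength can stand inside the strongest set of 1 line and outside that of another.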

How the data were processed

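Hi-C libraries of the 4 cell lines (8 samples) were analysed, and the 12 RNA-seq samples were not analysed here. The authors aligned reads with Bowtie to hg19, assigned pairs to anchors of about 5 kb, corrected biases with HiCorr and enhanced loops with DeepLoop, and they pooled the replicates. The deposited signal is the resulting loop strength, given for 300000 anchor pairs per line, the strongest ones. Anchor starts matched restriction sites of GRCh37.

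The members, gene lists and gene choices were made with earlier results of these data known. For each isogenic pair the 100000 strongest loops of both lines were merged, absent loops were given the lowest strength of the list, and corrected was regressed on mutant strength through the origin. Loops whose residual had a z-score beyond a two-sided 0.05 cutoff were called specific. This cutoff and the 1.5-fold rule are no tests against replicates. Named loops were 1 per group of neighbours (both anchor midpoints within 10 kb, linked in chains): the strongest by mean, those with the largest ratios in each pair, in both pairs and between systems, those of the largest groups, those at the thresholds, and the strongest of each gene list. A loop that this rule names within the H4 pair is not reported here. Genes are from GENCODE release 44 on GRCh37. The code was tested on simulated data. Python 3.11.15 with pandas 2.3.3, numpy 2.4.6, matplotlib 3.10.9 and scipy 1.17.1 was used.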

Additional observations from a re-analysis of the deposited data

Results flagged for a closer look

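The isogenic pairs lay on opposite sides of 0 in the strength ratio of short loops. The median log2 ratio, with the corrected line over its parent, was -0.16 for H4 88-1 and 0.16 for 42MGBA 53-1 over all short loops. Below 30 kb the medians were -0.32 and 0.15, and for adjacent anchors they were -0.40 and 0.29. These results were picked out because the same contrast had opposite signs in the 2 systems. Opposite signs were not particular to short loops. All merged loops had them the other way round, at 0.07 for H4 88-1 and -0.11 for 42MGBA 53-1, and loops of 200 to 500 kb had 0.085 and -0.125. With 1 pooled list per cell line the difference was not tested. The pairs hold mostly different loops. Below 30 kb more of them had been chosen through H4 than through H4 88-1, and more through 42MGBA 53-1 than through 42MGBA, which leans the same way as the signs. On the 491 short loops in both merged sets the medians had the same sign, 0.16 for H4 88-1 and 0.11 for 42MGBA 53-1, and on the 218 of these below 30 kb they were -0.12 and 0.033.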

How the results depend on the processing

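No paired analysis was possible because the replicates of a cell line were pooled into 1 list. The sign below 30 kb was the same with 1 loop per group, without groups of 20 or more, with loops listed in both lines and after centring, -0.18 to -0.40 in the H4 pair and 0.08 to 0.29 in the 42MGBA pair. These 4 alternatives, and that with all short loops, were chosen after seeing the data. For all short loops the H4 median of -0.16 was 0.20 with a limit of 100 kb, 0.033 with all 300000 loops, 0.11 with 1 loop per group and 0.13 without groups of 20 or more. With the short loops outside the merged set included it was 0.10. That is the value of any loop absent from both H4 lists, set by the lowest listed strengths, and thus measures no difference in strength. The 42MGBA median of 0.16 was -0.0047 with all 300000 loops. Leaving out 1 chromosome gave -0.21 to -0.11 and 0.14 to 0.17.

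The number of short loops was 2693 below 30 kb, 12837 below 100 kb, 1271 in the strongest 50000, 25684 in all 300000 and 481 with 1 per group. The share with a start near an anchor was 64.4% below 30 kb, 59.4% below 100 kb, 58.3% in all 300000 loops, 46.8% with the start inside the anchor, 75.2% within 10 kb and 66.6% without groups of 20 or more. The share with facing CTCF cores was 0.111% below 30 kb, 0.421% below 100 kb, 0.109% in all 300000, 0.0726% with the 9-letter core and 0.624% with 1 loop per group.

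Counts at 1.5-fold for H4 and H4 88-1 and for 42MGBA and 42MGBA 53-1 were 89, 99, 74 and 34 among loops listed in both lines and 266, 135, 41 and 276 after centring on all merged loops, which turned the balance in both pairs. With a lower limit of 0.32 on the log2 scale they were 673, 424, 388 and 905, and at 2-fold 2, 11, 0 and 0. Loops specific by z-score were 21 for H4 88-1 and 0 for 42MGBA with an intercept. With the log2 ratio they were 67 for H4 88-1, 2 for 42MGBA and 81 for 42MGBA 53-1. Within distance classes they were 12, 54, 107 and 12. No share of all merged loops was computed for the counts under these alternatives, so they describe the calls among short loops only. Read depth per loop is unknown, so no counting error could be given.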
